A study of Mus musculus with 12 samples.

Results

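RNAseq profiles of tSema4B cells stimulated with norepinephrine (NE) were compared with those of unstimulated empty vector cells, to see how far NE carries tSema4B cells towards the resting control level or past it. The comparison takes 3 tSema4B NE libraries and 3 vector unstimulated libraries, 6 of the 12 libraries in the study, and every gene with a normalised read count of at least 10 in at least 3 of the 12 libraries. That left 11998 genes of the 48321 listed, of which 22569 had a read. Per the paper's methods, all cells were immortalized brown adipocytes grown from the preadipocytes of a wild-type newborn mouse. They were immortalized with SV40 large T antigen, transduced with a pLEX lentivirus and selected with puromycin. Vector cells carry the empty lentivirus, and tSema4B cells carry mouse truncated Semaphorin 4B with a Flag tag, a soluble mimetic of the form that the protease ADAM17 releases. Both were differentiated for 8 days and kept for 6 h in serum-free medium with BSA, with 2 µM NE in the stimulated groups. The tSema4B unstimulated and vector NE groups, 3 libraries each, are given beside the comparison as reference points. One transduced line stands for each construct and the libraries of a group are labelled as technical replicates, so that the tests cover the spread between these libraries and not that between lines. Construct and NE both differ between the groups compared, so their parts in a difference cannot be told apart from this comparison alone. The reference comparisons share libraries with it.

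NE acts on brown adipocytes mainly through beta-adrenergic receptors, which raise cAMP and activate protein kinase A. Within hours this induces immediate-early and CREB target genes and Ucp1, the uncoupling protein that lets brown fat mitochondria release heat, and it starts lipolysis, the breakdown of stored triglyceride that fuels heat production. The capacity to respond is built during differentiation, when PPARγ and C/EBPα switch on the genes of fatty acid uptake, lipid storage and lipolysis together with the beta-3 adrenergic receptor.

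Reads counted on genes lay between 2841941 and 3682634 in the vector unstimulated libraries and between 2307190 and 3144946 in the tSema4B NE libraries. Sema4b (chr7:80186841-80226527, GRCm38) is only a limited check of the construct, since the table does not separate endogenous from lentiviral reads. It had 124008, 110786 and 115596 normalised counts in vector unstimulated, 208760, 223375 and 270694 in tSema4B NE, 281514 ± 31108 (SD, n = 3) in tSema4B unstimulated and 74266 ± 8219 in vector NE. The vector line therefore also holds a high Sema4b signal, and the tSema4B NE libraries lay at 201% of it. Transcripts of the mitochondrial genome took 13.4% to 15.8% of the reads in vector unstimulated and 6.91% to 7.68% in tSema4B NE. Its ribosomal RNA mt-Rnr2 was lower in tSema4B NE, with a log2 fold change of -1.16. The lines also differed in Xist, the RNA of the inactive X chromosome, at 892 normalised counts in vector unstimulated, 155 in tSema4B unstimulated and 132 in tSema4B NE. Y-linked genes went the other way. Ddx3y was read in all libraries, at 209, 355 and 328 in the same groups. Eif2s3y had 155, 272 and 335 and was called higher in tSema4B NE than in vector unstimulated. Uty (90.8, 140 and 149) and Kdm5d (68.1, 150 and 119) were unresolved in that comparison. The part of these line differences in the results below was not tested.

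Adipocyte markers were present in both groups, among them Fabp4 and Adipoq. Markers of other cell types are given by their summed levels, where a gene listed at 0 is not read as absent. Of 14 macrophage markers 2 passed the level filter, and their defining genes Ptprc and Adgre1 are listed at 0 in every library. The summed level of the macrophage list was 13.1 to 21.7 normalised counts in vector unstimulated and 25.7 to 52.1 in tSema4B NE, where Csf1r was called higher on 43 reads against 4. In vector NE the sum was 41.7 to 61.5, and Csf1r was called higher there too (log2 fold change 2.43). Csf1r shares 15.1% of its exon bases with Hmgxb3 on the opposite strand. Of 24 skeletal muscle markers 2 passed, Myod1 is listed at 0 everywhere, and the summed level was 39.1 to 62.1 against 16.1 to 35.03, with Acta1 called lower and at least 5.04-fold below the control. Endothelial markers (4 of 14 tested) summed to 135 to 172 against 165 to 193, with no more than 1 read of Cdh5 in any library. Nerve and Schwann cell markers (3 of 14 tested) summed to 321 to 411 against 492 to 529, and pericyte and smooth muscle markers (9 of 14 tested) to 1092 to 1628 against 824 to 1194.

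In NE-treated tSema4B cells most genes lay within 2-fold of the resting control, and more genes were called lower than higher. The call rule asked for a 2-fold change or more (1 on the log2 scale) together with an adjusted p of at most 0.05 in limma. With that rule 242 genes were higher in tSema4B NE than in vector unstimulated (2.02% of those tested) and 361 were lower (3.01%). A further 7760 genes (64.7%) were not called and had a 95% interval of the difference inside 2-fold, and these are described as within 2-fold, which does not mean equal. The remaining 3635 (30.3%) are unresolved, because the interval reached beyond 2-fold. At the adjusted p alone 803 genes (6.69%) were higher and 888 (7.4%) lower. The median log2 difference over all genes was -0.02. Values for single genes are log2 fold changes of normalised counts with a pseudocount of 1, which understates the change of genes with few reads. Against the same vector unstimulated libraries, 133 genes were called higher (1.11%) and 325 lower (2.71%) in resting tSema4B cells, and 199 higher (1.66%) and 117 lower (0.975%) in vector NE. Between the tSema4B groups, NE raised 157 genes (1.31%) and lowered 91 (0.758%).

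**Figure D1:**
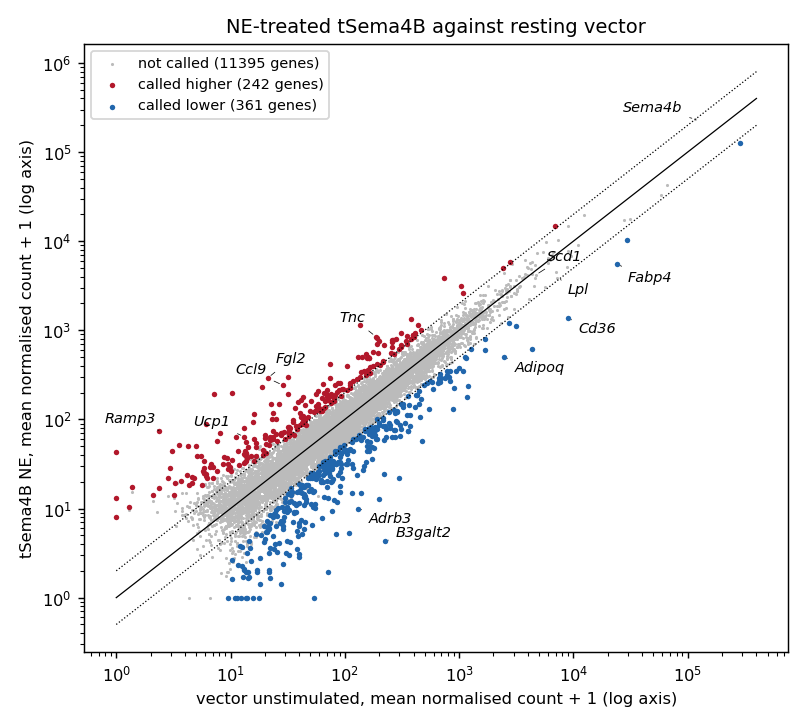
Mean normalised count plus 1 of each of the 11998 tested genes in vector unstimulated (x axis) and tSema4B NE (y axis), both on log axes, with 242 genes called higher in red and 361 called lower in blue. The solid line marks equal levels and the dotted lines 2-fold; Ucp1, Ccl9 and Ramp3 lie above the lines, Cd36, Adrb3 and Adipoq below them, and Scd1 between them.

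Ucp1 (chr8:83290352-83298452) was the clearest case of a thermogenic gene carried past the resting control. It had 15.2, 9.25 and 12.0 normalised counts in the vector unstimulated libraries, no read in any of the 3 tSema4B unstimulated libraries, and 66.5, 61.5 and 60.8 after NE in tSema4B cells. All 3 tSema4B NE libraries lay above all 3 vector unstimulated libraries, as they did for 1717 genes (14.3%). The log2 fold change was 2.31 ± 0.36 (SE; adjusted p = 7.63e-05), or 518% of the resting vector mean. Resting tSema4B cells were at least 2.96-fold below resting vector cells and at least 15.3-fold below tSema4B NE, taking 3 reads per library as the floor. Vector cells reached 293, 268 and 268 normalised counts with the same dose of NE, so the tSema4B NE libraries passed the unstimulated control while lying well below the stimulated one. The vector NE mean was 4.39 times the tSema4B NE mean.

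Only Ucp1 and Ccl9 were called lower in resting tSema4B cells and called higher after NE, among genes with a mean of at least 50 in tSema4B NE whose tSema4B NE and vector unstimulated libraries did not overlap. Ccl9, a chemokine that attracts myeloid cells, stood at 10.9, 43.7 and 28.3 normalised counts in vector unstimulated and at 17.9, 9.28 and 5.48 in resting tSema4B cells, with overlap of the resting groups. After NE it reached 246, 272 and 206 in tSema4B cells (log2 fold change against resting vector 3.27 ± 0.39, adjusted p = 2.1e-06) and 163, 139 and 142 in vector cells. The plot of values by library shows these 2 genes with 4 other genes that were called higher and are described below.

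**Figure D2:**
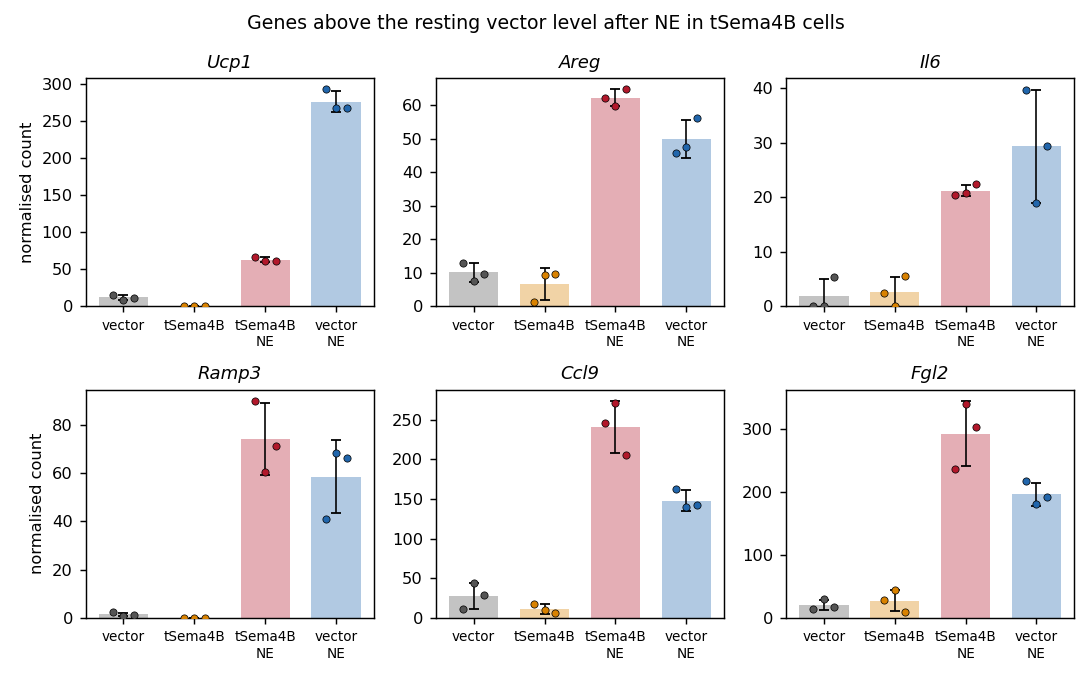
Normalised count per library (points), mean (bar) and SD (error bar), n = 3, for 6 genes in vector unstimulated, tSema4B unstimulated, tSema4B NE and vector NE. For all 6 genes the 3 tSema4B NE points lie above the 3 vector unstimulated points; for Ucp1 the vector NE points are the highest at 268 to 293.

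Immediate targets of cAMP signalling included several genes above the control level. Of 36 tested genes of this list 8 were called higher (22.2%, beside 2.02% of all genes), 0 lower and 15 were within 2-fold, with a median log2 fold change of 0.30 against -0.02 over all genes. The list median was -0.03 in resting tSema4B cells and 0.74 in vector NE, where 12 were called higher (beside 1.66% of all genes). Areg (amphiregulin, a ligand of the EGF receptor) went from 13.0, 7.57 and 9.80 normalised counts in vector unstimulated to 62.2, 59.6 and 64.7 in tSema4B NE, beside 45.7, 47.4 and 56.3 in vector NE (log2 fold change of the first step 2.53 ± 0.49, adjusted p = 0.000779). Il6, a cytokine that adipocytes secrete on adrenergic stimulation, had 5 reads in the 3 vector unstimulated libraries together and 58 in tSema4B NE, a ratio of 12.8 with a 95% exact counting interval of 5.18 to 40.9. Its tSema4B NE libraries held 20.4, 20.8 and 22.5 normalised counts, beside 39.6, 19.0 and 29.5 in vector NE. The libraries of both genes were well separated between the groups.

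The other members called higher were Cebpd, Junb, Crem, Fosl2, Ier3 and Hbegf. Cebpd, an early transcription factor of adipogenesis, rose from 158 ± 23.4 normalised counts in vector unstimulated to 506 ± 42.1 in tSema4B NE (log2 fold change 1.68 ± 0.16, adjusted p = 7.14e-08), with 272 ± 61.8 in resting tSema4B cells and 403 ± 49.0 in vector NE. Cebpd shares 15% of its exon bases with Spidr on the opposite strand, and since the strand setting of the counting is not stated, reads of such pairs cannot be told apart. The AP-1 subunit Junb (1.16), the cAMP-responsive repressor Crem (1.19) and the AP-1 subunit Fosl2 (1.02) had similar log2 fold changes. In vector NE, Junb had 481 ± 12.5 and Crem 231 ± 15.9 normalised counts, above the 357 ± 10.7 and 163 ± 15.7 of tSema4B NE, and Fosl2 had 503 ± 13.9 against 542 ± 32.7. Hbegf, another EGF receptor ligand, was already called higher in resting tSema4B cells, at 44.5 ± 22.7 normalised counts against 12.2 ± 6.52 in vector unstimulated. It had 31.4 ± 9.92 in tSema4B NE, so NE did not raise it there. Its call after NE was lost in 10 of 17 alternatives, among them edgeR (adjusted p = 0.0557) and the model of only the 6 libraries (adjusted p = 0.0808). The adjusted p of that call ran from 0.0276 to 0.227. Leaving out vector unstimulated replicate 2 or 3, or tSema4B NE replicate 2 or 3, each lost it, with log2 fold changes from 0.94 to 1.48. Nr4a1, a nuclear receptor induced within minutes to hours of cAMP, behaved otherwise: it had 24.98, 41.2 and 15.2 normalised counts in vector unstimulated, 17.2, 28.4 and 41.0 in tSema4B NE and 83.3, 90.7 and 79.2 in vector NE. Its tSema4B NE libraries overlapped the resting control and lay below every vector NE library. The log2 fold change against the resting control was 0.11, with a 95% interval of -0.64 to 0.87, and changed sign without vector unstimulated replicate 3 (-0.23). Nr4a2 was unresolved (-0.20), and Nr4a3 and Fosb were below the level filter.

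The promoters of Ucp1, Areg and Il6 are shown because these genes carry the response to NE above the control level. The sequences are from RefSeq (GRCm38.p6) and cover 250 bases before to 50 bases after the annotated start, 5′ to 3′ on the strand of the gene. Capitals mark the CREB recognition sequence TGACGTCA, which reads the same on both strands, and its shorter form TGACG, contained in it, which on the other strand reads CGTCA. The Ucp1 window is chr8:83290098-83290397 (+), that of Areg chr5:91139349-91139648 (+) and that of Il6 chr5:30012864-30013163 (+).
Ucp1: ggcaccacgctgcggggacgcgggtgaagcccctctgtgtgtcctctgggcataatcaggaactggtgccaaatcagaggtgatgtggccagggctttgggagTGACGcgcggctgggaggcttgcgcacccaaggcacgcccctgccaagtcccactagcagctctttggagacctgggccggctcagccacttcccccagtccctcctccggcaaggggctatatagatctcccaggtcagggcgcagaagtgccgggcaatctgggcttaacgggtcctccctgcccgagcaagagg
Areg: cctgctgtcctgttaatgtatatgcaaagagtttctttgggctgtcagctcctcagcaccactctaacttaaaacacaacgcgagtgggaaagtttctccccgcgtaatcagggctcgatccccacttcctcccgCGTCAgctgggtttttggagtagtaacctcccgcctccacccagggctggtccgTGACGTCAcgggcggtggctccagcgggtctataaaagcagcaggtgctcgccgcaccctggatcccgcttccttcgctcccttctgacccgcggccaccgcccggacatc
Il6: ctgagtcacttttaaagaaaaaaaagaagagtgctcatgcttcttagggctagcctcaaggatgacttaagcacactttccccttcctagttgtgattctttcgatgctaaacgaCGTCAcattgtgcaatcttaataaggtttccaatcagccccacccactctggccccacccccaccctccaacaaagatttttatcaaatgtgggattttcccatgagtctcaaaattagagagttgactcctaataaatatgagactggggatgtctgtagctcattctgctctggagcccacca
The full sequence lies in the Areg window, with its first base 61 bases before the start, and a separate CGTCA begins 115 bases before it. Ucp1 holds a single TGACG 147 bases before the start and Il6 a single CGTCA 135 bases before it. Of the tested genes, 8681 matched a promoter by symbol, and 3.82% of these held TGACGTCA and 37.0% the shorter form. The shares were 4.12% and 31.2% in the 170 matched genes called higher, and 1.2% and 27.6% in the 250 called lower. A match of letters is a description of the sequence and no evidence of binding.

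Among the 10 genes with the largest increases over resting vector cells was Ramp3. Ramp3, which pairs with the calcitonin receptor-like receptor to bind adrenomedullin, had 4 reads in the 3 vector unstimulated libraries, 0 in the tSema4B unstimulated libraries, and 90.1, 60.6 and 71.4 normalised counts in tSema4B NE. The ratio of tSema4B NE to vector unstimulated was 55.7 (95% exact counting interval 21.4 to 206). In vector NE it had 41.0, 68.2 and 66.1, which overlapped the tSema4B NE libraries. Ackr3, a scavenger receptor for the chemokine CXCL12, had 7 reads in vector unstimulated and a ratio of 22.5 (10.7 to 57.1).

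Fgl2, a secreted fibrinogen-like protein, stood at 14.1, 29.4 and 17.4 normalised counts in vector unstimulated and at 236, 339 and 303 in tSema4B NE (log2 fold change 3.83 ± 0.36, adjusted p = 7.69e-08), with 27.2 ± 16.9 in resting tSema4B cells and 196 ± 18.3 in vector NE. Gfra1, the receptor for the neurotrophic factor GDNF, had 30.8 ± 7.66 in vector unstimulated, 44.1 ± 10.3 in resting tSema4B cells, 298 ± 28.2 in tSema4B NE and 161 ± 5.77 in vector NE. Neither passed the test in resting tSema4B cells. Tnfsf11 (RANKL, the ligand that drives osteoclast formation; log2 fold change 3.27 ± 0.56, or 2.60 without vector unstimulated replicate 2) and Crispld2, a secreted cysteine-rich protein (3.79 ± 0.66), had the same order of group means.

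In 3 others of the 10 largest increases the gene was already called higher in resting tSema4B cells. Lrrc32, which docks latent TGF-β at the cell surface, had 6.18 ± 4.15 normalised counts in vector unstimulated, 36.9 ± 15.3 in tSema4B unstimulated and 194 ± 82.5 in tSema4B NE. Il1rl1, the receptor for interleukin-33, had 9.21 ± 4.34, 44.3 ± 12.3 and 195 ± 43.1 in the same groups. In vector NE, Lrrc32 had 112 ± 32.8 and Il1rl1 118 ± 62.6, both called higher than in vector unstimulated. Cyp7b1, an oxysterol hydroxylase, had 22.8, 10.1 and 20.7 in vector unstimulated, 73.0 ± 9.39 in tSema4B unstimulated, and 242, 266 and 176 in tSema4B NE. In vector NE, Cyp7b1 had 54.7 ± 19.2, and its log2 fold change in tSema4B NE against resting vector was 3.66 ± 0.31 (adjusted p = 1.51e-08). Ackr3 was also called higher at rest, and had 43.2 ± 10.7 in vector NE, where it was called higher too. For each of these 4 genes the step from vector to resting tSema4B and the step from there to NE passed the same rule.

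Other thermogenic genes that were called lay below the control. Of 18 tested thermogenic genes, 1 was called higher (Ucp1), 4 lower (22.2%, beside 3.01% of all genes) and 5 were within 2-fold, with a median log2 fold change of -0.45, beside -1.25 in resting tSema4B cells and 0.14 in vector NE. The count of lower genes was 6 after rescaling over nuclear genes and 2 with the filter of 50 normalised counts. The 4 lower genes were Cidea, a lipid droplet protein of brown adipocytes, Cox7a1, a cytochrome c oxidase subunit of heart, muscle and brown fat, the brown fat transcription factor Ebf2, and the coactivator Ppargc1b. Cidea had 52.1, 63.1 and 41.4 normalised counts in vector unstimulated and 8.58, 11.4 and 7.93 in tSema4B NE (log2 fold change -2.36 ± 0.38, adjusted p = 0.0001). Cox7a1 had 115 reads in the 3 vector unstimulated libraries and 6 in tSema4B NE, a ratio of 17.4 (95% exact counting interval 7.74 to 48.3). Ebf2 was at 75.9 ± 8.88 against 8.37 ± 5.19.

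Each of these 3 genes lay below the resting control in all 3 libraries, and NE did not move any of them past the test in tSema4B cells. Ppargc1a and Prdm16, coactivators of the thermogenic programme, were unresolved at log2 fold changes of -0.22 and -0.54, with tSema4B NE libraries that overlapped the control. Elovl3, a fatty acid elongase of cold-exposed brown fat, had 45.7 ± 20.6 normalised counts in vector unstimulated, 5.64 ± 3.51 in resting tSema4B cells, 24.6 ± 9.05 in tSema4B NE and 92.3 ± 18.4 in vector NE, and was unresolved (-0.84, adjusted p = 0.211). Dio2, the deiodinase that activates thyroid hormone, is listed at 0 in all 12 libraries. Several abundant mitochondrial transcripts, such as mt-Co3 and mt-Atp6, are also listed at 0, so a 0 in this table is not read as absence.

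The receptor that carries the NE signal in adipocytes stayed far below the control. Adrb3 (chr8:27225776-27250616) had 122, 122 and 144 normalised counts in vector unstimulated and 7.51, 7.57 and 11.9 in tSema4B NE (log2 fold change -3.73 ± 0.36, adjusted p = 9.64e-08), or 6.96% of the resting control mean. The antisense gene Gm45470 covers 24.9% of its exon bases. Every tSema4B NE library lay below every vector unstimulated library, as was the case for 1757 genes (14.6%). The level was 14.6 ± 9.01 in resting tSema4B cells and 81.7 ± 17.6 in vector NE. The beta-1 receptor Adrb1 was below the level filter. The pathway as a whole was near the shares over all genes (3.01% lower, 64.7% within 2-fold): of 34 tested members 2 were lower (5.88%), Adrb3 and the protein kinase A anchor Akap1 (log2 fold change -1.29), 0 were higher (2 without tSema4B NE replicate 2) and 23 were within 2-fold (67.6%). RNA from a mixed culture does not tell fewer mature adipocytes from less RNA per adipocyte, here or in what follows.

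Some genes that were low in resting tSema4B cells came within 2-fold of the control with NE. By the call rule 25 annotated genes with a mean of at least 50 in vector unstimulated were lower in tSema4B than in vector at rest and raised by NE in tSema4B cells. This set was drawn up after the values were seen, and the rule that made it used the libraries compared, so its values are a description. After NE, 8 of the 25 were within 2-fold of the resting vector (beside 64.7% of all genes). A further 9 were still called lower (beside 3.01%) and 8 were unresolved (beside 30.3%).

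Scd1 (stearoyl-CoA desaturase, which makes monounsaturated fatty acids; chr19:44394455-44407879) was the most abundant gene that came back. It had 5599, 4162 and 4283 normalised counts in vector unstimulated, 2186, 1811 and 1767 in resting tSema4B cells, and 4459, 3910 and 4157 after NE. The tSema4B NE libraries overlapped those of the control, and the log2 difference was -0.15 with a 95% interval of -0.37 to 0.07. Gk, the kinase that lets brown adipocytes re-use glycerol, had 298, 267 and 294 in vector unstimulated, 117 ± 34.1 in resting tSema4B cells and 271, 387 and 369 in tSema4B NE (0.24, interval -0.13 to 0.61). In vector NE, Gk reached 898 ± 93.1.

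Bnip3, a mitophagy receptor induced by low oxygen, stood at 557 ± 62.0, 182 ± 45.9 and 482 ± 7.89 normalised counts in vector unstimulated, resting tSema4B and tSema4B NE. Lgals3, the lectin galectin-3, stood at 431 ± 28.1, 198 ± 34.5 and 426 ± 44.2 in the same order. Il1rn, the interleukin-1 receptor antagonist, was at 345 ± 58.2, 155 ± 40.1 and 352 ± 60.4. All 3 ended with a 95% interval inside 2-fold; the libraries of Lgals3 and Il1rn overlapped those of the control, and those of Bnip3 lay just below them. Dgat1, which makes the last bond of triglyceride, Pfkfb3, an activator of glycolysis, and Pdk1, which inhibits pyruvate dehydrogenase, complete the 8. They lay at 77.5%, 74.7% and 72.0% of the control mean, with overlap of the libraries for Pfkfb3. The Pdk1 libraries lay below those of the control, with a log2 fold change of -0.51 (limma adjusted p = 0.0468).

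Gda, the guanine deaminase, was among the unresolved genes and the only one of the 25 whose tSema4B NE libraries all lay above the control. It had 60.8, 83.2 and 76.2 normalised counts in vector unstimulated, 21.5, 34.0 and 28.8 in resting tSema4B cells and 84.7, 147 and 140.1 after NE, or 169% of the control mean (log2 fold change 0.72, interval 0.20 to 1.23, adjusted p = 0.0576). In vector NE it reached 489.8%. Others came part of the way. Lpl, the lipase that frees fatty acids from lipoproteins (chr8:68880491-68907448), had 7693, 7480 and 6495 normalised counts in vector unstimulated, 1883, 1760 and 2063 in resting tSema4B cells and 3846, 4248 and 3566 after NE. It rose within tSema4B cells (log2 fold change 1.03, adjusted p = 2.1e-08) and reached 53.8% of the control mean, without overlap of the libraries. The log2 fold change against the control was -0.89, with an interval of -1.06 to -0.73. Retn, the adipokine resistin, went from 10.1% to 24.7% of the control mean and Hp, haptoglobin, from 15.6% to 45.0%. Both were called lower than the control after NE, with log2 fold changes of -2.02 and -1.15, while vector NE lay at 224% and 233%.

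**Figure D3:**
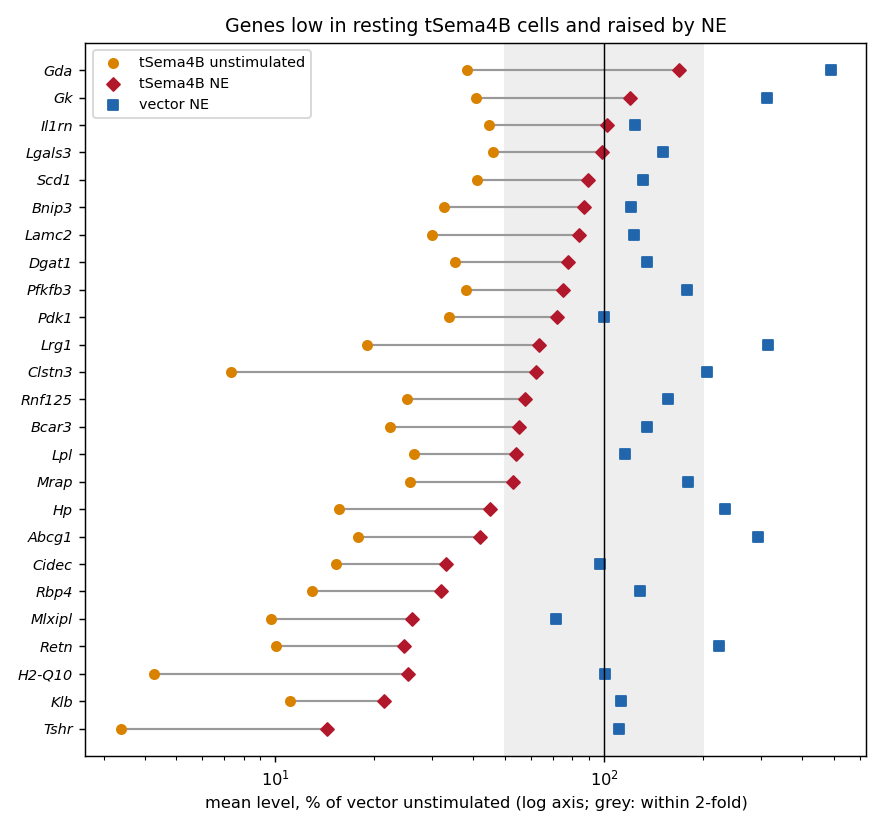
Mean level as a percentage of the vector unstimulated mean (log axis) in tSema4B unstimulated (circles), tSema4B NE (diamonds) and vector NE (squares), n = 3 each, for the 25 genes that were low in resting tSema4B cells and raised by NE. The grey band marks 2-fold around the control; Scd1, Gk, Bnip3, Lgals3 and Il1rn end inside it near 100%, and Retn, Klb and Tshr end below it.

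The genes that define a mature adipocyte remained low. Of 17 tested markers 14 were called lower than in vector unstimulated (82.4%, beside 3.01% of all genes) and 0 higher (beside 2.02%). None was within 2-fold, beside 64.7% of all genes. All 17 markers had every tSema4B NE library below every control library, beside 14.6% of all genes. Their median log2 fold change was -2.02, or -1.90 with Pck1, which is listed at 0 in tSema4B NE, set to the bound from 3 reads. It was -2.49 in resting tSema4B cells and -0.01 in vector NE. Within tSema4B cells NE raised 3 of the 17, beside 1.31% of all genes, with a list median of 0.19.

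Cd36, the fatty acid translocase (chr5:17781690-17888801), had 8857, 10434 and 7537 normalised counts in vector unstimulated and 1292, 1487 and 1291 in tSema4B NE (log2 fold change -2.71 ± 0.10, adjusted p = 2.9e-14), beside 1564 ± 107 in resting tSema4B cells. Fabp4, the fatty acid carrier of adipocytes (chr3:10204088-10208576), had 24643, 24549 and 22910 against 6039, 5476 and 5038 (-2.13 ± 0.13, adjusted p = 9.34e-11). Adipoq, which encodes adiponectin, had 2789, 2212 and 2373 against 553, 477 and 462 (-2.30 ± 0.11, adjusted p = 2.41e-12). These 3 genes stayed at 15.2%, 23.0% and 20.2% of the control mean, and none was raised past the call rule by NE in tSema4B cells. Slc2a4, the insulin-responsive glucose transporter, was at 18.3%, and the adipsin gene Cfd at 33.9%. Lep, which encodes leptin, had at most 4 reads in a library and was below the level filter.

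**Figure D4:**
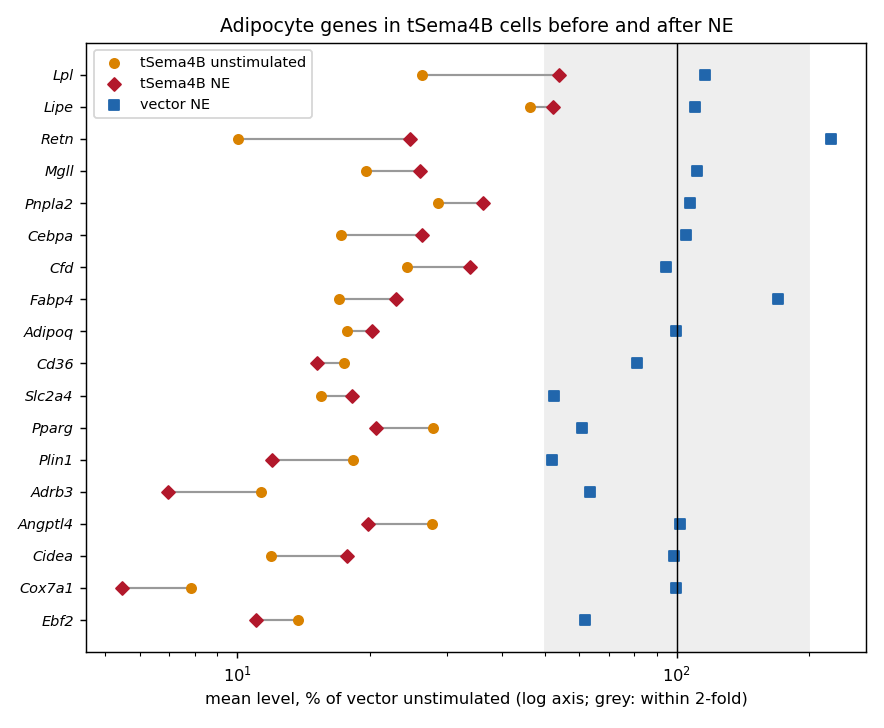
Mean level as a percentage of the vector unstimulated mean (log axis) in tSema4B unstimulated (circles), tSema4B NE (diamonds) and vector NE (squares), n = 3 each, for 18 adipocyte and brown adipocyte genes. The grey band marks 2-fold around the control; Lpl and Lipe reach its edge at 53.8% and 52.3%, and the other genes lie to its left in tSema4B NE.

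Pparg and Cebpa, the central transcription factors of adipogenesis, were called lower as well. Pparg, the nuclear receptor PPARγ (chr6:115360951-115490399), had 351, 409 and 307 normalised counts in vector unstimulated and 74.0, 88.1 and 58.1 in tSema4B NE (log2 fold change -2.27 ± 0.19, adjusted p = 1.02e-08), beside 99.3 ± 17.0 in resting tSema4B cells and 217 ± 31.6 in vector NE. Cebpa, which encodes C/EBPα, had 219 ± 43.3 in vector unstimulated and 57.6 ± 4.82 in tSema4B NE (-1.90 ± 0.24). The list of transcription factors of adipogenesis, 27 of them tested, also holds inhibitors such as Id1. Of the 27, 9 were lower (33.3%, beside 3.01% of all genes), 1 higher (Cebpd) and 10 within 2-fold, with a median of -0.53. The lipogenic factor Mlxipl was at 26.1% of the control, and the inhibitor of differentiation Id1 at 30.2%.

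Many genes of lipid storage and lipolysis were called lower, and the lists share Plin1, Aqp7 and Cidec. Of 35 tested genes of fatty acid uptake and storage 17 were lower (48.6%, beside 3.01% of all genes), 0 higher and 10 within 2-fold (median log2 fold change -0.95, beside -1.35 at rest, or -1.11 with genes listed at 0 set to their bound), and of 18 lipolysis genes 9 were lower (50%), 0 higher and 4 within 2-fold (-1.25, beside -1.45). Plin1, the perilipin that guards the lipid droplet, had 494, 520.5 and 396 normalised counts in vector unstimulated and 30.0, 78.6 and 60.8 in tSema4B NE (-3.13 ± 0.29). Pnpla2 (ATGL), the first lipase of triglyceride breakdown, had 1713, 1882 and 1424 against 644, 659 and 515 (-1.46 ± 0.11, adjusted p = 3.92e-09). Its inhibitor G0s2 was at 14.99% of the control mean and Mgll, the monoglyceride lipase, at 26.1%. Lipe (HSL) was unresolved at 52.3% of the control (-0.91, interval -1.24 to -0.58). Aqp7, the glycerol channel of adipocytes, had 66.2, 71.5 and 50.1 against 1.07, 11.4 and 7.93.

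Other genes with the largest decreases lay outside these lists. B3galt2, a galactosyltransferase, had 683 reads in the 3 vector unstimulated libraries and 9 in tSema4B NE, a ratio of 68.8 (95% exact counting interval 36.0 to 151), and shares 7.31% of its exon bases with Cdc73 on the opposite strand. Anxa8, an annexin, had 61.9, 33.6 and 64.3 normalised counts in vector unstimulated and is listed at 0 in all 6 tSema4B libraries, at least 15.9-fold lower in tSema4B NE. Gdf10, a TGF-β family growth factor, had 217 reads in vector unstimulated and 3 in tSema4B NE, a ratio of 65.6 (22.1 to 320.5). Acvr1c (ALK7), a receptor of the same family, had 250 reads against 10. Adcyap1r1, the receptor for the neuropeptide PACAP, had 184, 272 and 138 normalised counts against 2.14, 13.3 and 19.8.

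For these genes no library of one group reached the range of the other, which the rule that chose them required. Adh1, which oxidizes retinol, and Akr1c14, a steroid dehydrogenase, differed in that NE lowered them further within tSema4B cells. Adh1 went from 295 ± 52.8 normalised counts in vector unstimulated to 44.6 ± 8.29 in resting tSema4B cells and 21.2 ± 3.78 in tSema4B NE. Akr1c14 went from 139 ± 10.2 to 56.5 ± 16.1 and 14.0 ± 2.71. In vector NE, Akr1c14 had 51.5 ± 6.59 and was called lower than in vector unstimulated, and Adh1 had 166 ± 18.9 and was not called. Angpt2, an antagonist of vascular TIE2 signalling, had 86.9, 96.7 and 83.9 in vector unstimulated and 23.6, 19.9 and 0 in tSema4B NE, with 36.3, 33.2 and 32.1 in vector NE.

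Some genes of oxidative metabolism were called lower than the control. Among 29 tested genes of fatty acid oxidation 6 were called lower (20.7%, beside 3.01% of all genes), 0 higher and 16 were within 2-fold (55.2%, beside 64.7% of all genes; median log2 fold change -0.66), and among 26 of the tricarboxylic acid cycle and its entry points 4 were lower (15.4%), 0 higher and 17 within 2-fold (65.4%; median -0.71). With libraries rescaled over nuclear genes 7 of the cycle list were lower. Pcx, pyruvate carboxylase, had 1032, 980 and 983 normalised counts in vector unstimulated and 295, 452 and 388 in tSema4B NE (-1.42 ± 0.12, adjusted p = 2.26e-08). Dlat, a subunit of pyruvate dehydrogenase, was at 39.1% of the control and the peroxisomal enzyme Cat at 35.6%. Of 26 genes of the cycle list 24 had all tSema4B NE libraries below the control libraries, beside 14.6% of all genes. The same held for 23 of the 29 fatty acid oxidation genes, with 1 above. The 94 nuclear genes of the respiratory chain had a median of -0.42, and 80 were within 2-fold. Of the 94, 3 were called lower (3.19%, near the 3.01% of all genes). In 54 of the 94, however, all tSema4B NE libraries lay below the control libraries, and in 2 above. The 8 tested mitochondrially encoded genes had a median of -0.73 with 0 called, and 7 of them lay below in this way and 0 above. Vector NE had medians of -0.04 for the cycle and 0.26 for the nuclear respiratory genes.

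Of 23 tested genes of lipogenesis 4 were lower (17.4%, beside 3.01% of all genes), 0 higher and 13 within 2-fold, with a median of -0.66. Of the 23, 14 had all tSema4B NE libraries below the control libraries, beside 14.6% of all genes. Thrsp, a lipogenic regulator, had 98.8, 135 and 109 normalised counts in vector unstimulated against 9.65, 11.4 and 21.1 in tSema4B NE (-3.00 ± 0.31, adjusted p = 2.96e-07), and Acss2, which makes acetyl-CoA from acetate, was at 24.5% of the control. Fasn, the fatty acid synthase, had 642, 604 and 577 normalised counts against 324, 288 and 362 and was unresolved (-0.91, interval -1.14 to -0.67), beside 459 ± 41.8 in resting tSema4B cells and 323 in vector NE. Acly, which makes cytosolic acetyl-CoA from citrate, was within 2-fold (-0.07, interval -0.31 to 0.18). Among 34 genes of glucose uptake and glycolysis 23 were within 2-fold (67.6%, near the 64.7% of all genes) and 3 called lower (8.82%, beside 3.01%), or 6 without vector unstimulated replicate 3. Slc2a1, the basal glucose transporter, was unresolved at 0.69. Slc16a3, the lactate exporter MCT4, was called higher at 242 ± 38.6 against 110 ± 11.6, with 250 ± 27.3 in vector NE. Its log2 fold change of 1.12 was 0.99 without tSema4B NE replicate 3, just short of the call.

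The called matrix and preadipocyte genes were mostly higher than in the control. Of 60 tested matrix genes 6 were higher (10%, beside 2.02% of all genes), 1 lower (1.67%, beside 3.01%) and 40 within 2-fold (66.7%, beside 64.7%), with a median of 0.29, beside 0.58 in resting tSema4B cells and -0.28 in vector NE. Col3a1, a fibrillar collagen chain, had 6882, 7317 and 6515 normalised counts in vector unstimulated, 14462 ± 1061 in resting tSema4B cells and 14265, 14257 and 15428 in tSema4B NE (log2 fold change 1.09 ± 0.07, adjusted p = 5.6e-10). Its tSema4B groups overlapped each other and stood apart from the control.

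Tnc and Timp1 were higher again with NE. Tnc, the repair matrix protein tenascin C, had 182, 176 and 198 normalised counts in vector unstimulated, 383 ± 81.4 in resting tSema4B cells, 703, 688 and 1161 in tSema4B NE and 431 ± 94.4 in vector NE (2.15 ± 0.18, adjusted p = 1.65e-08). Timp1, an inhibitor of matrix proteases, had 256 ± 29.2, 533 ± 79.7, 785 ± 66.7 and 558 ± 96.3 in the same groups, and its step within tSema4B cells was 0.57, under the size needed for a call. Col1a1, the main collagen chain, had a log2 fold change against the control of 1.03 at rest and 0.76 after NE, inside 2-fold. Its step within tSema4B cells was -0.27, under the size needed for a call. Under quantile normalization the Col1a1 interval reached past 2-fold.

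Of 32 tested preadipocyte and fibroblast markers 5 were higher (15.6%, beside 2.02% of all genes), 1 lower (3.12%, beside 3.01%) and 19 within 2-fold. Without vector unstimulated replicate 1 only 2 of them were called higher. Ly6a (Sca-1), a marker of adipose progenitors, had 127, 155 and 204 normalised counts in vector unstimulated and 589, 464 and 408 in tSema4B NE (1.59 ± 0.18, adjusted p = 1.37e-06), with 234 ± 57.6 in resting tSema4B cells. Fap, fibroblast activation protein, had 55.4, 90.0 and 62.1 against 238, 142 and 254. Pdgfra, the receptor of adipose progenitors, was unresolved (0.78), and the preadipocyte marker Dlk1 was at 1781 ± 71.0 against 1782 ± 122. Tagln, a smooth muscle protein of contractile fibroblasts, was the marker called lower (-1.21), and the antisense gene Gm48529 covers 62.4% of its exon bases.

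Of 46 tested secreted factors 10 were called higher (21.7%, beside 2.02% of all genes) and 9 lower (19.6%, beside 3.01%). The higher members included Ccl9, Il6, Tnfsf11, Areg, Ereg, Igfbp4 and Vegfc, and the lower ones Adipoq, Retn, Angptl4, Agt and Cfd. The log2 fold change of Vegfc, 1.22, was 0.96 with a pseudocount of 10, short of the call. Igfbp4, which binds insulin-like growth factors, had 198 ± 33.8 normalised counts in vector unstimulated, 808 ± 17.5 in resting tSema4B cells and 752 ± 34.0 in tSema4B NE. Angptl4, an inhibitor of Lpl, had 1114, 1296 and 1162 against 261, 260 and 188. Of 23 tested genes of metal and oxidant defence 2 were higher (8.70%, beside 2.02% of all genes), Mt2 and Slc39a14, 1 was lower, Cat (4.35%, beside 3.01%), and 17 were within 2-fold. Mt2, a metallothionein, had 152 ± 17.9 against 544 ± 135, with 654 ± 87.7 in vector NE and 73.5% of its exon bases shared with the antisense gene Gm45774, and Slc39a14, a zinc importer, was at 393% of the control.

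Calls in the semaphorin pathway were near the share over all genes (2.02% higher, 3.01% lower). Of 29 tested members, Sema4b among them, 0 were called higher (up to 3 when 1 library was left out) and 1 lower (3.45%), the class 4 semaphorin Sema4a, with 27.1, 37.0 and 40.3 normalised counts against 9.65, 13.3 and 1.32. Nrp1, a co-receptor of semaphorins, had 528, 653 and 514 in vector unstimulated and 1054, 917 and 1292 in tSema4B NE, a log2 fold change of 0.94 (interval 0.70 to 1.18) that fell short of the call. Adam17 and Plxnb2, the sheddase and a plexin receptor, were within 2-fold at -0.09 and -0.05. Sema4b was called higher in 8 of 18 alternatives, among them edgeR, DESeq2, rescaling to the same total (1.05) and quantile normalization (1.29), and Nrp1 in 3 of 18.

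Several other lists held no called gene, beside shares of 2.02% higher and 3.01% lower over all genes, which for lists of under 40 genes is a difference of few calls. DNA replication and mitosis (31 of 34 genes within 2-fold), proteasome subunits (36 of 37), ribosome biogenesis (31 of 38) and mitochondrial ribosomal proteins (70 of 79) were among them, and so were interferon response genes, with 22 of 33 within 2-fold (66.7%, beside 64.7% of all genes). Leaving out single libraries gave up to 2 calls among the interferon genes. Lists without a call could still be shifted by less than 2-fold. Of the 34 replication and mitosis genes, 16 had all tSema4B NE libraries below the control libraries and 4 above. Of the 38 ribosome biogenesis genes, 11 had them above and 0 below. The shares over all genes were 14.6% below and 14.3% above. Ribosome biogenesis had a median of 0.26 in tSema4B NE and 0.85 in vector NE. In vector NE 12 of its genes were called higher, beside 1.66% of all genes. The plot of list medians sets each list beside both reference groups.

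**Figure D5:**
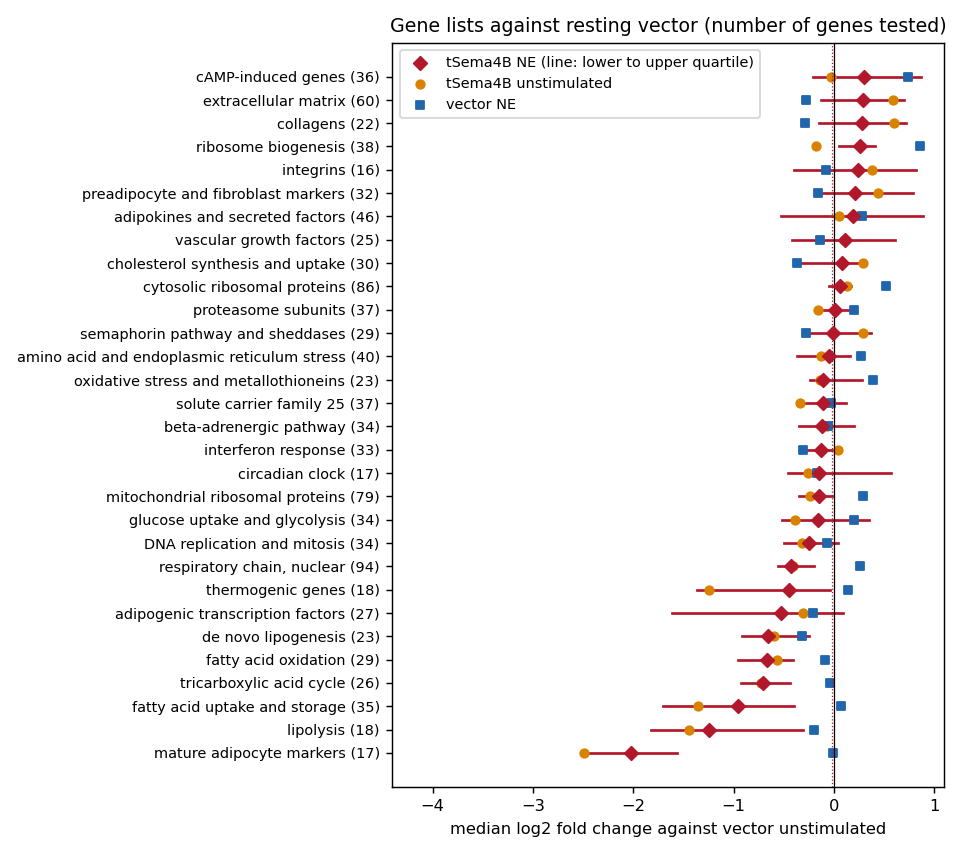
Median log2 fold change against vector unstimulated for each gene list with at least 15 tested genes, in tSema4B NE (diamonds, with a line from the lower to the upper quartile), tSema4B unstimulated (circles) and vector NE (squares); the dotted line is the median of all genes in tSema4B NE (-0.02). Mature adipocyte markers (-2.02), lipolysis (-1.25) and fatty acid uptake (-0.95) lie lowest, and cAMP-induced genes (0.30) highest.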

How the data were processed

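The signal deposited by the authors is a normalised read count per gene in each of 12 libraries. Per the paper's methods, SMART-Seq2 cDNA was sequenced single-end, screened for other species, aligned with STAR 2.7.9a to GRCm38 and counted with htseq-count. The deposited counts are labelled as normalised by DESeq2. The annotation and strand setting are not given in the sources used here. Dividing each library by its smallest step gave whole reads for 100% of the non-zero entries (tolerance 0.01), which were used for depth, counting intervals and the count tests. No column was left out (0 unused), and 27 symbols turned into dates by a spreadsheet were kept as listed. Such conversions lose the gene's name, and no such symbol is named.

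Genes with at least 10 normalised counts in 3 or more libraries were fitted in R 4.3.3 with limma 3.58.1 (trended prior) on log2 of the normalised count plus 1, as 1 model of the 4 groups, with Benjamini-Hochberg adjustment over all 11998 genes. A gene not called whose 95% moderated interval lay inside 2-fold is described as within 2-fold. Errors are SD over 3 libraries for levels and moderated SE for fold changes. With 3 libraries against 3, an exact permutation test of single values cannot go below p = 0.1. A group at 0 reads was set to 3 reads per library for a bound. Other ratios of read totals carry exact 95% intervals, which cover counting error only, since the reads have no molecular identifiers. Alternatives used edgeR 4.0.16 and DESeq2 1.42.0 on the recovered reads. Scripts ran in Python 3.11.15 with pandas 2.3.3, scipy 1.17.1 and matplotlib 3.10.9. The fit was tested on simulated data.

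Named genes were the 10 largest calls in each direction without overlap of libraries and with a mean of at least 50, those called in opposite directions at rest and here, the called members of each list (beyond 6, the 4 largest in each direction), and key members whatever their values. The comparison, gene lists and rules were chosen with earlier results of these data known. Positions and exon overlaps are from GENCODE M21. Same-numbered replicates did not deviate together (18 pairs of libraries, r of -0.05 to 0.03, 0 over 0.1), so no pairing was used.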

Additional observations from a re-analysis of the deposited data

How the results depend on the processing

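The counts of 242 genes higher and 361 lower stayed within 1.5 times under the other pseudocounts, scalings, count models and designs, with exceptions for calls at adjusted p alone (803 higher, 888 lower) and for the filter of 50 normalised counts (228 lower), which tests fewer genes. Leaving out 1 library gave 216 to 244 higher, 272 to 394 lower and 7049 to 7288 within 2-fold. With the replicate block 237 genes were higher, 352 lower and 7730 within 2-fold, of which 233 and 348 of the higher and lower calls were shared with the unblocked fit. edgeR called 251 and 350 genes and DESeq2 261 and 363; neither gives the interval needed for the count within 2-fold. Higher genes were 40.1% of calls, and 33.7%, 45.8% and 46.9% after rescaling over nuclear genes, to the same total and by quantile normalization. The log2 fold change of Nr4a2 ran from -0.52 to 0.11 and that of Ppargc1a from -0.59 to 0.0192 when 1 library was left out, and that of Nr4a1 from -0.23 to 0.46, so none of the 3 has a stable sign, and the cause was not tested. Nr4a1 was no longer within 2-fold in 4 of 18 alternatives. Depth limits the folds of genes with few reads. Some of these are given with counting intervals or as bounds. Others, such as Crispld2, Lrrc32 and Adora2b, are given as levels or log2 fold changes without one.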

Other observations

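Several cytokine receptors outside the gene lists were also above the resting control in NE-treated tSema4B cells; they were chosen after their values were seen. Il6st (gp130, the shared receptor of the interleukin-6 family) had 1000.2, 1112 and 1027 normalised counts in vector unstimulated, 1620 ± 266 in resting tSema4B cells, 3159, 3356 and 2903 in tSema4B NE and 1742 ± 74.5 in vector NE. Its log2 fold change against the resting control was 1.58 ± 0.10. Osmr, its partner for oncostatin M, had a log2 fold change of 1.30 and lay at 246% of the control mean, beside 143% in resting tSema4B cells and 235% in vector NE. Socs3, a feedback inhibitor of this pathway, had 1.83 and lay at 359%, beside 139.6% and 371%. The interleukin receptors Il4ra (1.92), Il13ra1 (1.89) and Il1r1 (1.13) were called higher as well, at 379.9%, 369% and 219.8% of the control mean. In resting tSema4B cells these receptors lay at 149%, 165% and 124%. In vector NE these receptors lay at 254%, 263% and 158%, and Il4ra and Il13ra1 were called higher there too.

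Other genes, likewise named after their values were seen, were Adora2b, an adenosine receptor coupled to cAMP (log2 fold change 2.97), S1pr1, a sphingosine-1-phosphate receptor (2.50), Bmper, a secreted regulator of BMP signalling (3.06), and Mgp, an inhibitor of calcification (2.38), all called higher. Adora2b, S1pr1 and Bmper were already called higher in resting tSema4B cells, at 404%, 275% and 221.5% of the control mean, where Mgp lay at 197%. In vector NE they lay at 304%, 309.9%, 296% and 288% of the control mean, against 854%, 572%, 846% and 523% in tSema4B NE. Cdo1, the cysteine dioxygenase of taurine synthesis, was called lower (-2.82), at 14.1% of the control mean. It was already called lower in resting tSema4B cells, at 20.9%, and lay at 41.3% in vector NE.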
